A study of Mus musculus with 6 samples.

Results

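The 88 genes described here are small nucleolar RNAs (snoRNAs) and the noncoding transcripts that carry them, out of 22180 mouse genes with a probe set of their own on an Affymetrix whole-transcript array. They were chosen by symbol alone: 47 Snord genes, which are box C/D snoRNAs, 26 Snora genes, which are box H/ACA snoRNAs, and 15 Snhg genes, the small nucleolar RNA host genes. Where a gene had more than 1 probe set, the brightest was used, which concerned 4 of the 88 genes. No low-signal filter was applied, so all 88 were tested. Another 30 snoRNA, Snhg and Gas5 symbols occur on probe sets shared with other genes only and were not analysed here.

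Total RNA came from cultured prostate epithelial cancer cells of Rb1F/F:Trp53F/F:PB-Cre4 mice, in which Cre under the probasin promoter, active in prostate epithelium, deletes Rb1 and Trp53. PIM1 cells had been transduced with lentivirus for PIM1, a serine/threonine kinase, and EV cells with lentivirus of the empty vector, so both groups share the deletions, the vector and the medium with charcoal-stripped serum. There were 3 arrays per group, 6 in all. The labels do not say whether the arrays came from separate cultures or whether a line was 1 clone, and each p-value below therefore reflects how far these arrays scatter, a spread that could be purely technical.

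SnoRNAs guide chemical changes on other RNAs inside the nucleolus. Box C/D snoRNAs bind fibrillarin, Nop56, Nop58 and Snu13 and direct 2'-O-methylation of ribosomal RNA, whereas box H/ACA snoRNAs bind dyskerin (Dkc1), Gar1, Nhp2 and Nop10 and direct pseudouridylation. Most vertebrate snoRNAs lie in introns of ribosomal protein genes, translation factor genes or Snhg genes and are trimmed out of the spliced intron, so 1 primary transcript can yield both a host RNA and several snoRNAs. The spliced host RNAs of several Snhg genes are known substrates of nonsense-mediated decay. A probe set placed on a snoRNA does not tell the mature RNA from the longer precursor that still contains it.

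Each value below is the authors' deposited signal on a log2 scale, a difference is PIM1 minus EV, and a gene is said to have risen or fallen where limma's adjusted p was under 0.05 over all 22180 genes. Over all genes 27% passed, 16.1% upward and 10.9% downward, with a median difference of -0.05. These were 3575 genes up and 2420 down, and 4324 and 1558 once each array was centred on its own median. The groups did not overlap in 43.2% of genes. Within-group correlations of arrays were 0.994 to 0.996 for PIM1 and 0.990 to 0.991 for EV. Pim1 itself read 7.11, 6.89 and 6.97 in PIM1 cells, against 5.26, 6.25 and 5.23 in EV cells, and rose by 1.41 (adjusted p = 0.00455). Rb1 averaged 4.85 in PIM1 cells and 4.47 in EV cells and did not pass (adjusted p = 0.293). Since both groups carry the Rb1 deletion, this checks no label. Of the defining epithelial markers, Krt18 averaged 4.90 in PIM1 cells and 9.14 in EV cells, while Epcam (2.35 in PIM1 cells, 2.50 in EV cells) and Trp63 (2.96 in PIM1 cells, 2.83 in EV cells) lay under the array medians in both groups. Of 7 epithelial markers 0 rose and 3 fell, and their summed linear signal was 104.7 to 105.4 in PIM1 cells, against 650.1 to 684.4 in EV cells. Krt18 alone made up most of the EV sum, and the median difference over the 7 markers was -0.42. Of 12 fibroblast markers 10 rose and 1 fell, with a summed signal of 11859 to 12398 in PIM1 cells, against 2788 to 2844 in EV cells. By limma 0 of 8 endothelial markers passed (1 at an unadjusted p under 0.05). There was 1 rise and 1 fall among 9 leukocyte and macrophage markers, and 1 rise and 2 falls among 6 of smooth muscle. The leukocyte and macrophage sum was 256.8 to 309.1 in PIM1 cells, against 145.3 to 161.7 in EV cells, though the median difference was -0.24. The smooth muscle sum was 228.4 to 240.1 in PIM1 cells, against 266.2 to 290.5 in EV cells. The endothelial sum was 50.4 to 59.2 in PIM1 cells, against 57.1 to 62.3 in EV cells. The part of these marker shifts in the snoRNA differences was not tested. In a bulk sample, fewer cells of a type and less RNA per cell cannot be told apart.

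The box C/D snoRNAs stood apart on the array of PIM1 replicate 3. Relative to each gene's EV mean, the median over the 47 C/D genes was 0.28 on PIM1 replicate 1, 0.44 on PIM1 replicate 2 and 0.00 on PIM1 replicate 3, against 0.00, 0.01 and 0.03 on the EV arrays in the same order of number. PIM1 replicate 3 gave the lowest of the 3 PIM1 values in 40 of 47 C/D genes (85.1%), against 35.3% of all genes. In 24 of the 47 it lay more than 0.5 below the mean of the other PIM1 arrays, and the median gap was -0.51 over the C/D genes, against 0.01 over all genes. The gap was small in the other classes, with medians of -0.04 over the 26 H/ACA genes and 0.08 over the 15 host transcripts. Among other short RNAs, 10 were Rnu and Rny genes, Rn7sk, Rpph1, Terc and Vaultrc5. These 10 genes had a median gap of -0.42 and were lowest on that array in 9 of 10 cases. The 5 Scarna genes, for Cajal body RNAs, had a median gap of -0.18 and were lowest there in 4 cases. By contrast, 472 microRNA genes had a median gap of 0.00 and were lowest there in 35.6%. The microRNA genes were dim, with a median signal of 2.33 in PIM1 cells, against 7.96 for those 10 genes. Which property of the sample moved with the low values on PIM1 replicate 3 was not tested. The counts of C/D snoRNAs are therefore given with and without that array, and genes whose call changed without it are named.

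**Figure D1:**
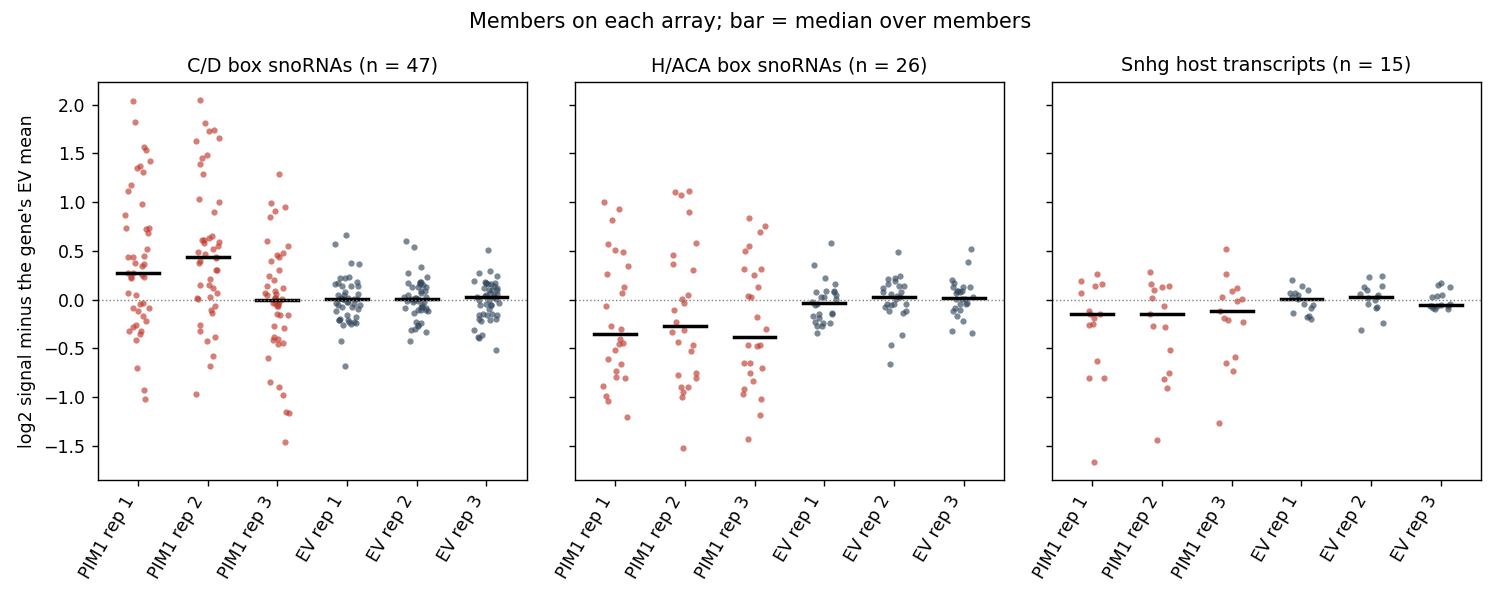
Signal of each member on each array (x axis) minus the gene's EV mean (y axis, log2), by class; points are genes and black bars are medians over genes. The C/D median is 0.28, 0.44 and 0.00 on PIM1 replicates 1, 2 and 3 and 0.00, 0.01 and 0.03 on the EV arrays, while the H/ACA medians of the PIM1 arrays all lie between -0.38 and -0.27.

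Of the 47 box C/D snoRNAs, 11 rose and 4 fell, together 31.9% against 27% of all genes, with a median difference of 0.23. The risers were Snord70, Snord110, Snord37, Snord35a, Snord111, Snord49b, Snord71, Snord89, Snord13, Snord73b and Snord35b, and the fallers were Snord65, Snord61, Snord8 and Snord22. The groups did not overlap in 18 C/D genes (38.3%, against 43.2% of all genes), with PIM1 above EV in 13 and below in 5. Without PIM1 replicate 3, 17 rose and 3 fell (42.6%, against 21.3% of all genes), and the median was 0.33. That array was set apart because most C/D genes read low on it, so leaving it out raised most of their differences by construction. Snord47, Snord49a, Snord55, Snord66, Snord83b and Snord99 then passed in addition, all upward, and Snord22 no longer did. Without PIM1 replicate 1 the counts were 7 up and 2 down (19.1%, against 19.2% of all genes). Without PIM1 replicate 2 they were 6 and 3 (19.1%, against 18.8% of all genes). With each array centred on its own median the split was 13 up and 2 down.

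Snord70, held by an intron of Nop58, had the largest rise. It read 7.57, 7.80 and 6.70 in PIM1 cells, against 5.88, 5.44 and 5.92 in EV cells. Every PIM1 array lay above every EV array, with replicate 3 the lowest of the PIM1 arrays. The difference was 1.61 (95% interval 0.98 to 2.24, 3.05-fold higher, adjusted p = 0.00334). Snord110, which lies in Nop56, was at 10.67, 10.95 and 10.43 in PIM1 cells, against 9.14, 9.12 and 9.14 in EV cells. The EV arrays were nearly equal and the groups far apart, with a difference of 1.55 (1.23 to 1.86, 2.92-fold higher, adjusted p = 0.000111). Snord35a had 9.80, 9.98 and 9.14 in PIM1 cells, against 8.25, 8.16 and 8.31 in EV cells, a difference of 1.40 (0.94 to 1.87, adjusted p = 0.0014). It belongs to the group of Rpl13a intronic snoRNAs that in mouse cells has been linked to the response to lipid and oxidative stress. Snord35b rose by 0.61, with values of 6.55, 6.72 and 6.01 in PIM1 cells, against 5.76, 5.71 and 5.97 in EV cells. There PIM1 replicate 3 lay only just above the highest EV array, and the call was lost without PIM1 replicate 1 or 2 or without EV replicate 1 or 2 (adjusted p = 0.0928 to 0.131).

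Snord111, held by the splicing factor gene Sf3b3, read 7.49, 7.60 and 6.96 in PIM1 cells, against 6.02, 6.18 and 6.14 in EV cells. It rose by 1.24 (0.85 to 1.62, adjusted p = 0.00105) with no overlap. Snord49b was at 10.70, 10.93 and 9.88 in PIM1 cells, against 9.07, 9.21 and 9.55 in EV cells, and rose by 1.23 (0.62 to 1.83, adjusted p = 0.00988). PIM1 replicate 3 was the PIM1 array nearest to the EV arrays and still above them. Snord13, the U13 snoRNA, which is transcribed from its own promoter and acts on 18S ribosomal RNA, had 7.76, 7.85 and 6.86 in PIM1 cells, against 6.54, 6.41 and 6.25 in EV cells. It rose by 1.09 (0.52 to 1.66, adjusted p = 0.0133), a call lost without PIM1 replicate 1 (adjusted p = 0.0523) or 2 (adjusted p = 0.0501). Snord118, the U8 snoRNA needed for maturation of 5.8S and 28S ribosomal RNA and likewise made from its own promoter, did not pass, with 6.66, 6.76 and 6.23 in PIM1 cells, against 5.96, 6.51 and 6.68 in EV cells.

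The calls of the other large C/D rises were lost when PIM1 replicate 1 or 2 was left out, as given for each gene. Snord37, held by the elongation factor gene Eef2, had low signals of 4.41, 4.09 and 2.91 in PIM1 cells, against 2.31, 2.26 and 2.53 in EV cells. Its difference was 1.44 (0.67 to 2.21, adjusted p = 0.0148), and without PIM1 replicate 2 it was 1.29 (adjusted p = 0.0587). Snord71 had 6.66, 6.94 and 6.54 in PIM1 cells, against 4.86, 6.09 and 5.69 in EV cells. EV replicate 1 was the low value there, and the rise of 1.17 (adjusted p = 0.0169) became 1.05 without PIM1 replicate 2 (adjusted p = 0.0656). Snord89 had 6.88, 7.20 and 6.05 in PIM1 cells, against 5.38, 5.57 and 5.74 in EV cells, and rose by 1.14 (adjusted p = 0.0146, or 0.055 without PIM1 replicate 1). Snord73b rose by 0.95 (adjusted p = 0.0137), and that call was lost without PIM1 replicate 1 (adjusted p = 0.0541) or 2 (adjusted p = 0.0505).

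Among the C/D fallers, Snord65 read 8.15, 8.19 and 8.01 in PIM1 cells, against 9.39, 9.15 and 8.95 in EV cells. All PIM1 arrays were below all EV arrays, and the fall was -1.04 (-1.35 to -0.74, 2.06-fold lower, adjusted p = 0.000689). Snord61, in Rbmx, was at 6.53, 6.86 and 6.08 in PIM1 cells, against 7.12, 7.41 and 7.18 in EV cells. Its difference of -0.75 (adjusted p = 0.0226) did not pass without PIM1 replicate 1 (adjusted p = 0.0601) or EV replicate 2 (adjusted p = 0.063). Snord8 fell by 0.54 (adjusted p = 0.032) and did not pass without PIM1 replicate 2 or any 1 of the EV arrays (adjusted p = 0.0511 to 0.0778). Snord22, the U22 snoRNA, required for 18S ribosomal RNA processing and held by Snhg1, had 10.06, 10.22 and 9.63 in PIM1 cells, against 10.55, 10.46 and 10.42 in EV cells. It fell by 0.51 (adjusted p = 0.0418), and without PIM1 replicate 3 the difference was -0.34 (adjusted p = 0.0742). That call was also lost without PIM1 replicate 1 or any 1 of the EV arrays (adjusted p = 0.0685 to 0.1).

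Several of the C/D snoRNAs with the highest signal did not pass, with PIM1 replicate 3 below the other PIM1 arrays. Snord82 had 10.94, 10.97 and 10.25 in PIM1 cells, against 10.67, 10.61 and 10.72 in EV cells, a difference of 0.05 (-0.38 to 0.49). Replicates 1 and 2 of PIM1 were above all EV arrays and replicate 3 was below all of them, so the sign depends on which PIM1 array is left out. Snord47 had 10.06, 10.06 and 9.24 in PIM1 cells, against 9.59, 9.62 and 9.66 in EV cells, with a difference of 0.16 (-0.32 to 0.65) and, without PIM1 replicate 3, of 0.43 (adjusted p = 0.0236). Snord55 had 9.89, 10.20 and 9.18 in PIM1 cells, against 8.999, 9.23 and 9.38 in EV cells, with a difference of 0.55 (-0.01 to 1.11) and, without PIM1 replicate 3, of 0.84 (adjusted p = 0.013). Snord16a differed by 0.23 (-0.28 to 0.74). The other C/D members that did not pass had differences between -0.69 (Snord92) and 0.63 (Snord49a).

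Of the 26 box H/ACA snoRNAs, 7 rose and 11 fell, together 69.2% against 27% of all genes, with a median difference of -0.26. The groups did not overlap in 20 of the 26 (76.9%, against 43.2% of all genes), with PIM1 above EV in 8 and below in 12. Since both snoRNA classes are brighter than most genes, limma was also refitted on the 11090 brighter genes alone. Here, and wherever the brighter genes are named below, p was adjusted over those genes only, unlike the main calls. Of all brighter genes 53.3% passed in that fit. There 18 of 23 H/ACA genes (78.3%) and 15 of 40 C/D genes (37.5%) passed. The split depended on the setting: 4 H/ACA genes rose and 12 fell after quantile normalization, 8 rose and 10 fell after centring, and 8 rose and 10 fell among the brighter genes. It was 4 up and 9 down without PIM1 replicate 1 (50.0%, against 19.2% of all genes). Without PIM1 replicate 2 it was 3 and 11 (53.8%, against 18.8%), and without PIM1 replicate 3 it was 5 and 9 (53.8%, against 21.3%). Leaving out PIM1 replicate 3 ended the calls of Snora2b, Snora41, Snora61 and Snora73a (adjusted p = 0.0502 to 0.0817).

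Snora21 had the largest fall of any snoRNA, with 8.52, 8.21 and 8.55 in PIM1 cells, against 9.58, 9.92 and 9.69 in EV cells. The lowest EV array was more than 1 unit above the highest PIM1 array, and the difference was -1.30 (-1.62 to -0.99, 2.47-fold lower, adjusted p = 0.000275). Snora68 read 6.52, 6.31 and 6.39 in PIM1 cells, against 7.66, 6.95 and 7.31 in EV cells (difference -0.90, adjusted p = 0.00637). Snora74a, the U19 snoRNA held by Snhg4, read 6.33, 6.27 and 6.38 in PIM1 cells, against 7.37, 7.16 and 7.11 in EV cells (difference -0.89, adjusted p = 0.00058). In each of these 3 genes the PIM1 arrays lay close together and below every EV array. Snora78 fell by 0.87 (adjusted p = 0.000808), with 6.72, 6.74 and 6.497 in PIM1 cells, against 7.55, 7.40 and 7.61 in EV cells. Snora69, in the ribosomal protein gene Rpl39, fell by 0.86 (adjusted p = 0.00262), with 4.76, 4.90 and 5.15 in PIM1 cells, against 5.67, 5.73 and 6.004 in EV cells. Snora31, in Tpt1, fell by 0.70 (adjusted p = 0.00104), with 6.66, 6.52 and 6.67 in PIM1 cells, against 7.35, 7.33 and 7.29 in EV cells. None of these 6 genes had overlapping groups, and their calls held in all alternatives that were run.

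Snora34 had 9.10, 9.19 and 8.29 in PIM1 cells, against 9.80, 9.75 and 9.59 in EV cells. PIM1 replicate 3 was the lowest array, the difference was -0.85 (adjusted p = 0.0245) and without that array -0.57 (adjusted p = 0.0152). Its call was lost without EV replicate 1 (adjusted p = 0.0659) or 2 (adjusted p = 0.057). Snora19, in the initiation factor gene Eif3a, had low signals of 2.51, 2.61 and 2.75 in PIM1 cells, against 3.23, 3.99 and 3.29 in EV cells (difference -0.88, adjusted p = 0.0128, or 0.0502 without PIM1 replicate 1). Its 2 probe sets carry identical values and count as 1 measurement.

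Among the H/ACA risers, Snora44 read 6.72, 6.91 and 6.63 in PIM1 cells, against 5.74, 5.32 and 6.31 in EV cells. It rose by 0.96 (0.44 to 1.48, 1.95-fold higher, adjusted p = 0.0154), with EV replicate 3 the closest to the PIM1 arrays, and without PIM1 replicate 2 the difference was 0.88 (adjusted p = 0.0608). Snora33, the member with the highest signal, had 11.83, 11.90 and 11.33 in PIM1 cells, against 10.68, 10.85 and 10.96 in EV cells, and rose by 0.86 (adjusted p = 0.00586). When every probe set was tested, the dimmer probe set of Snora33 fell by 1.15 (adjusted p = 0.00404) while the brighter rose by 0.86 (adjusted p = 0.0195), so the 2 probe sets of this gene disagree in direction. Their mean differed by -0.15 (adjusted p = 0.325). The snoRNAs Snora73a and Snora73b, near-identical copies of U17, which is needed for cleavage of the ribosomal RNA precursor, differed by 0.32 (adjusted p = 0.0396) and 0.30 (adjusted p = 0.0778) and may share signal. The Snora73a call was lost without any 1 of the 6 arrays (adjusted p = 0.0517 to 0.135).

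**Figure D2:**
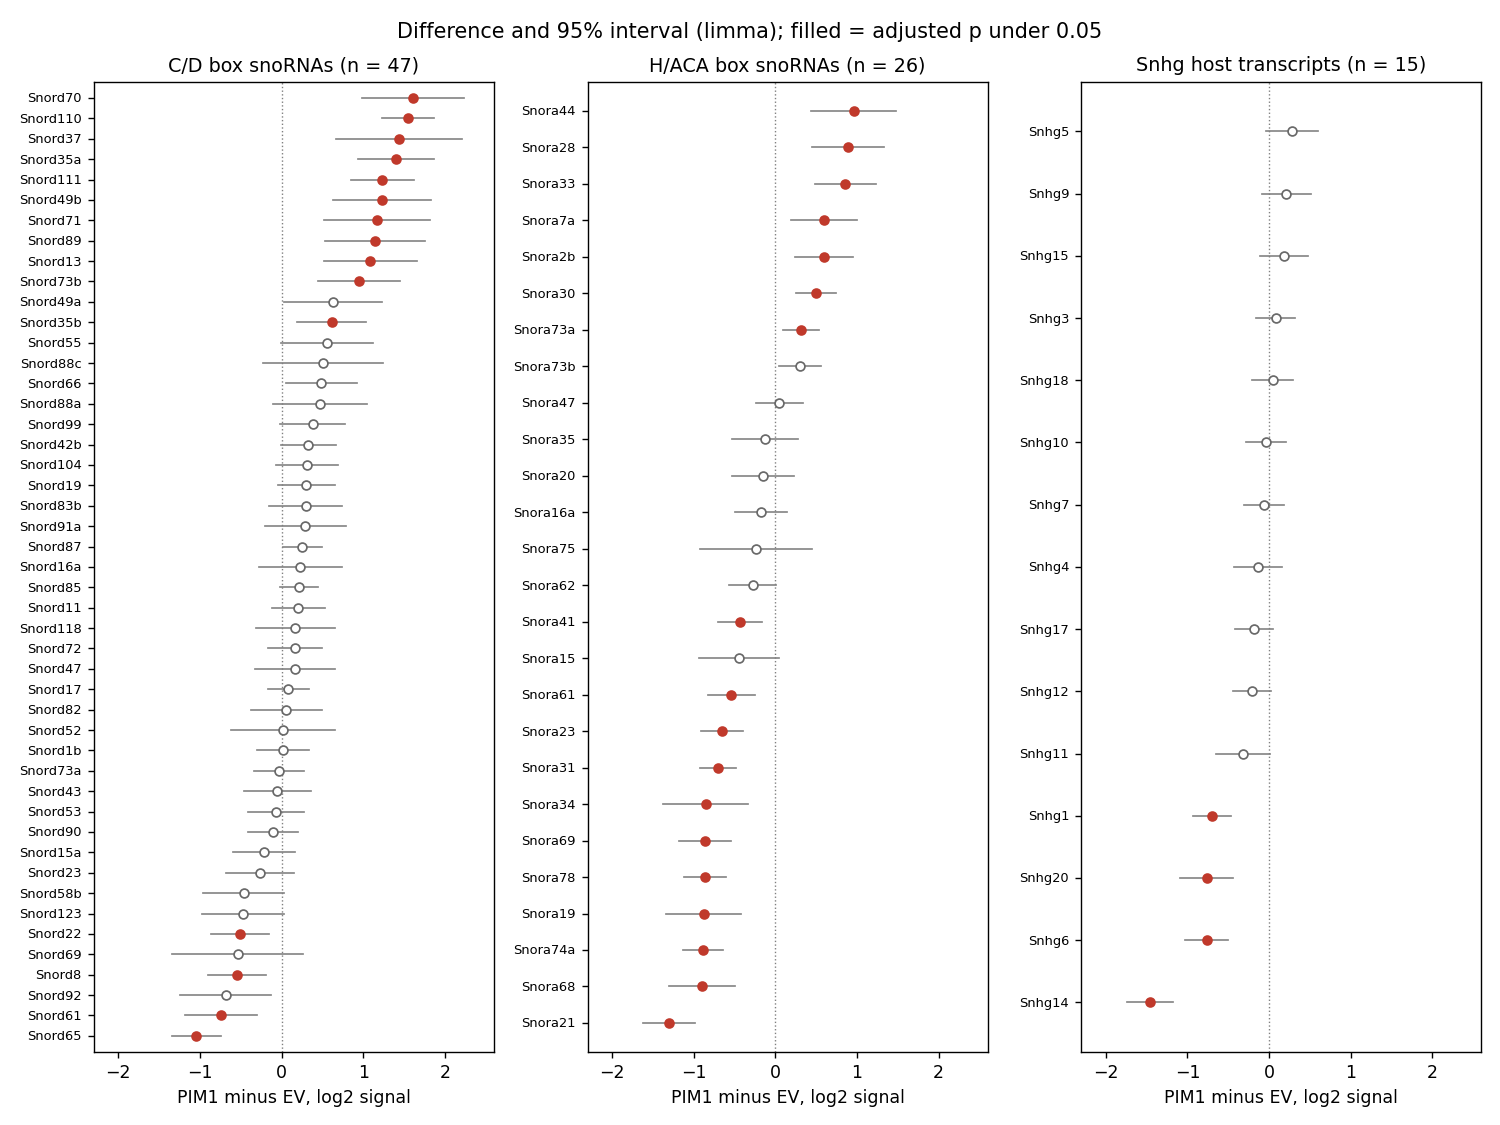
Difference PIM1 minus EV (x axis, log2 signal) of every member with its 95% interval from limma, ordered within each class; filled points passed an adjusted p of 0.05. C/D snoRNAs run from -1.04 (Snord65) to 1.61 (Snord70), H/ACA snoRNAs from -1.30 (Snora21) to 0.96 (Snora44), and host transcripts from -1.46 (Snhg14) to 0.28 (Snhg5).

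Of the 15 Snhg host transcripts, 4 fell and 0 rose: Snhg14, Snhg6, Snhg20 and Snhg1. At an unadjusted p under 0.05 limma likewise gave these 4 and no other. They make up 26.7% of the hosts, against 27% of all genes, and 10.9% of all genes fell. Among the brighter genes 3 of 13 hosts passed (23.1%), against 53.3% of all brighter genes. The median host difference was -0.13. The groups did not overlap in 7 of the 15 (46.7%, against 43.2% of all genes), with PIM1 below EV in all 7, which were the 4 fallers, Snhg11, Snhg12 and Snhg17. These 4 calls held in all alternatives that were run and held the gene.

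Snhg1, known in human cells as the host of several C/D snoRNAs including U22, had 7.24, 7.06 and 7.22 in PIM1 cells, against 7.93, 7.87 and 7.80 in EV cells. All PIM1 arrays were below all EV arrays, and the difference was -0.70 (-0.93 to -0.46, 1.62-fold lower, adjusted p = 0.00146). Snhg6, which spans Snord87, had 7.68, 7.58 and 7.89 in PIM1 cells, against 8.55, 8.51 and 8.39 in EV cells, and fell by 0.77 (1.7-fold lower, adjusted p = 0.00177). Snhg20 had 6.08, 6.13 and 6.15 in PIM1 cells, against 7.03, 6.57 and 7.05 in EV cells. EV replicate 2 was the lowest EV array and still above every PIM1 array, with a difference of -0.76 (adjusted p = 0.00517). Snhg14, an imprinted transcript across the Ube3a region that is best known from neurons and hosts the Snord115 and Snord116 clusters, had the largest host difference, at a signal lower than that of the other 3 fallers. It read 1.83, 2.06 and 2.23 in PIM1 cells, against 3.54, 3.51 and 3.43 in EV cells (difference -1.46, adjusted p = 8.28e-05). The EV values were close to the array medians of 3.49 to 3.52 and the PIM1 values were below those of 3.38 to 3.42, and how much of such a low signal is background is not known.

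Among the other hosts with a high signal, Snhg4 had 7.79, 7.78 and 8.16 in PIM1 cells, against 8.07, 8.10 and 7.96 in EV cells, and the groups overlapped. Snhg17 had 7.27, 7.32 and 7.23 in PIM1 cells, against 7.41, 7.38 and 7.59 in EV cells, without overlap but not past the threshold (difference -0.19, -0.42 to 0.05, adjusted p = 0.222). Snhg5 had 7.10, 7.03 and 7.42 in PIM1 cells, against 6.73, 7.04 and 6.95 in EV cells, the largest positive host difference at 0.28 (-0.04 to 0.60, adjusted p = 0.18). The remaining hosts that did not pass had differences between -0.32 (Snhg11) and 0.21 (Snhg9).

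**Figure D3:**
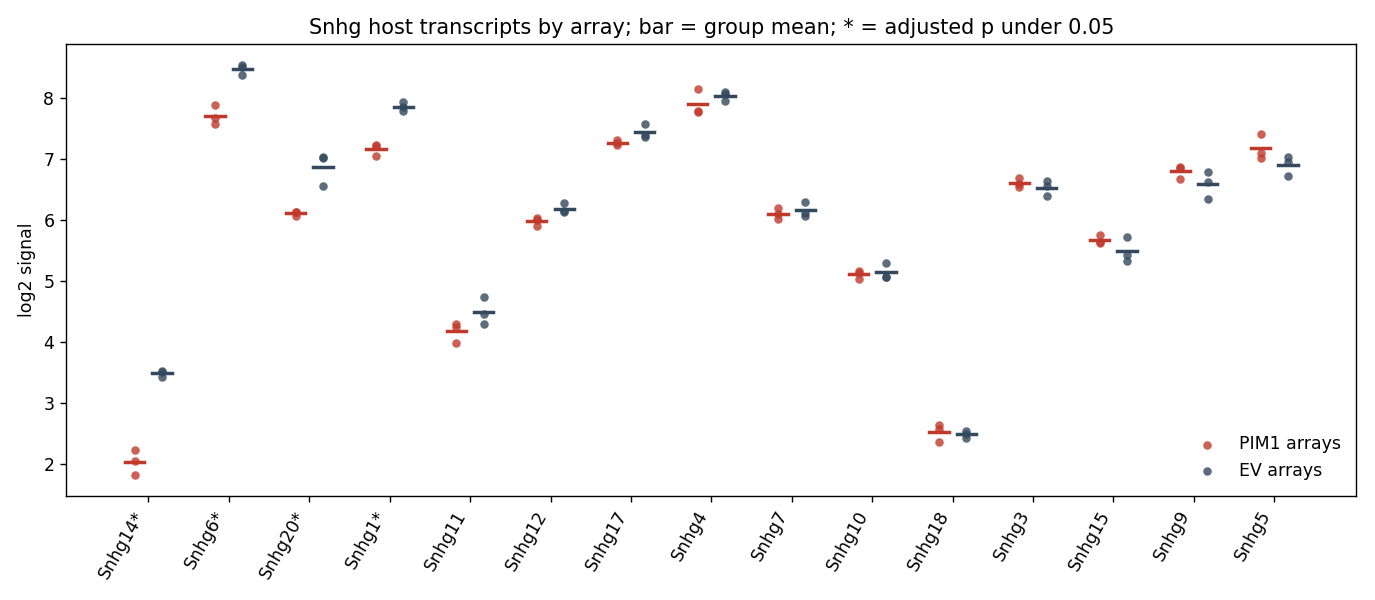
Log2 signal (y axis) of the 15 Snhg host transcripts on each array, PIM1 left of EV for each gene; bars are group means and an asterisk marks an adjusted p under 0.05. In Snhg14, Snhg6, Snhg20 and Snhg1 every PIM1 array lies below every EV array. Snhg5, Snhg9, Snhg15, Snhg3 and Snhg18 have slightly higher PIM1 means with overlapping groups.

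Many snoRNA host genes belong to the TOP class, whose transcripts begin with a run of pyrimidines and are translated in step with ribosomal protein mRNAs. The sequence around the start is therefore shown for hosts that fell and hosts that did not, each as 30 bases before and 30 bases from the RefSeq start, 5' to 3' on the gene's strand (RefSeq, GRCm38.p6). Capitals mark the first run of at least 5 C or T that begins within 5 bases of the start. Snhg1 (chr19:8723457-8723516, + strand), Snhg20 (chr11:117076753-117076812, + strand) and Snhg14 (chr7:60450148-60450207, - strand) fell. Snhg12 (chr4:132308648-132308707, + strand), Snhg7 (chr2:26640215-26640274, - strand) and Snhg5 (chr9:88522868-88522927, - strand) did not pass. 2410006H16Rik (chr11:62602847-62602906, + strand) is the noncoding gene that holds Snord49a, Snord49b and Snord65.
Snhg1: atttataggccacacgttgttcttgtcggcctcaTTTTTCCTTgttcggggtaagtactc
Snhg20: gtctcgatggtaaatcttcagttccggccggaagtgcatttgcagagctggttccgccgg
Snhg14: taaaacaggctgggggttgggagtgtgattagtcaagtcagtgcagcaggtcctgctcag
Snhg12: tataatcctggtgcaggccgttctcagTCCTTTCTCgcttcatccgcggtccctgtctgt
Snhg7: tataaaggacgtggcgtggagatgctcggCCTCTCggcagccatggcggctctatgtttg
Snhg5: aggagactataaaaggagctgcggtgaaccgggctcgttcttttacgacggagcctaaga
2410006H16Rik: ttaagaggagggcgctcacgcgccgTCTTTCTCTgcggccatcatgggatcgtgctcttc

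Such a run was found in Snhg1 among the fallers with a start and in Snhg12 and Snhg7 among those shown that did not pass. RefSeq starts were matched for 13 of the 15 hosts. Of these, 6 held the run at 1 or more starts (Snhg1, Snhg3, Snhg7, Snhg12, Snhg17 and Snhg18), against 25.3% of 27025 genes in the promoter table. The letters CACGTG, the same on both strands, were found in the 300 bases around the start of Snhg9 and Snhg15, against 8.09% of genes. Neither host passed. A match describes the letters only.

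The snoRNAs were then set beside the genes that hold them. RefSeq positions placed 64 of the 73 snoRNAs inside exactly 1 other gene, 6 inside several and 3 inside none, Snord13, Snord89 and Snord118. For 55 snoRNAs that single holder was itself measured, which gave 41 holders: Snhg genes, 34 protein-coding genes, and the noncoding genes 2410006H16Rik and 1110038B12Rik. In 6 of the 55 pairs snoRNA and holder changed in the same direction, in 3 they changed in opposite directions, in 15 the snoRNA alone passed, in 14 the holder alone passed and in 17 neither did. Across the 55 pairs the differences had a Pearson r of 0.15 and a Spearman rho of 0.22, given as a description since pairs share arrays and some share a holder. The median size of the difference was 0.47 for snoRNAs and 0.27 for holders.

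The pairs that moved together, with the difference of the snoRNA given before that of its holder, were Snord110 with Nop56 (1.55 and 0.49), Snord22 with Snhg1 (-0.51 and -0.70), Snora19 with Eif3a (-0.88 and -0.91), Snora23 with Ipo7 (-0.65 and -0.51), Snora31 with Tpt1 (-0.70 and -0.71) and Snora7a with Rpl32 (0.60 and 0.97). Of these, Snora7a did not pass without EV replicate 1 or PIM1 replicate 1 or 2 (adjusted p = 0.0931 to 0.12), Ipo7 did not without PIM1 replicate 2 (adjusted p = 0.0519), and Snord22 and Snora19 depend on single arrays as given above. The pairs that moved apart were Snord70 with Nop58, Snord73b with Rps3a1 and Snora33 with Rps12. Nop58, a core C/D protein, had 9.10, 8.99 and 9.13 in PIM1 cells, against 9.87, 9.74 and 9.75 in EV cells, and fell by 0.71 (adjusted p = 0.00109) while its intronic Snord70 rose by 1.61. Rps3a1 fell by 1.42 (adjusted p = 0.000572) while Snord73b rose by 0.95, and Rps12 fell by 0.55 (adjusted p = 0.00402) while the brighter probe set of Snora33 rose by 0.86. Over all 55 pairs, the arrays' values of snoRNA minus holder did not overlap between the groups in 28, a count that includes pairs whose members moved apart and so had to differ. Gene by gene, the groups did not overlap in 43.2% of all genes, 52.1% of snoRNAs and 70.6% of protein-coding holders. No such share was computed for pairs of other genes, so the 28 are given as a description only. With 3 against 3 arrays the smallest exact permutation p for a single pair is 0.1 two-sided, so no such pair could pass on its own.

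Pairs in which the holder alone fell include Snord82 with nucleolin (Ncl), which read 9.56, 9.56 and 9.52 in PIM1 cells, against 10.53, 10.42 and 10.31 in EV cells. Ncl fell by 0.87 (adjusted p = 0.000399), whereas Snord82 differed by 0.05. Snord87 averaged 10.00 in PIM1 cells and 9.75 in EV cells (difference 0.25, 0.02 to 0.49, adjusted p = 0.11), although Snhg6, which spans it together with Mcmdc2, fell by 0.77. In the opposite case, Snora74a fell by 0.89 while Snhg4 differed by -0.13 (-0.43 to 0.16), and Snora78 fell by 0.87 while Snhg9, which spans it together with Rps2, differed by 0.21 (-0.09 to 0.52). Snord111, Snord37 and Snora28 rose while their protein-coding holders Sf3b3 (0.14), Eef2 (0.20) and Eif5 (-0.12) did not pass.

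SnoRNAs of the same holder also differed among themselves. There were 11 holders with more than 1 measured snoRNA, which gave 18 pairs of snoRNAs. In 3 of the 18 both passed in opposite directions, and 0 pairs passed in the same direction. In 2410006H16Rik, which itself read 8.36, 8.35 and 8.24 in PIM1 cells, against 8.24, 8.53 and 8.16 in EV cells, Snord49b rose by 1.23, Snord65 fell by 1.04 and Snord49a differed by 0.63 (adjusted p = 0.114). The holder's own groups overlapped (difference 0.01). In Snhg12, which read 6.04, 5.91 and 6.002 in PIM1 cells, against 6.29, 6.15 and 6.14 in EV cells, Snora44 rose by 0.96 and Snora61 fell by 0.54. Snora16a (-0.17) and Snord99 (0.38) in the same gene did not pass. In Kansl2, a subunit gene of a histone acetyltransferase complex, Snora2b rose by 0.59 and Snora34 fell by 0.85. The Snora44, Snora61, Snora2b and Snora34 calls are among those lost with 1 array left out, as given above for Snora44 and Snora34. Snora61 lost its call without PIM1 replicate 3 (adjusted p = 0.0502), and Snora2b without any 1 of the PIM1 arrays (adjusted p = 0.0523 to 0.0817).

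**Figure D4:**
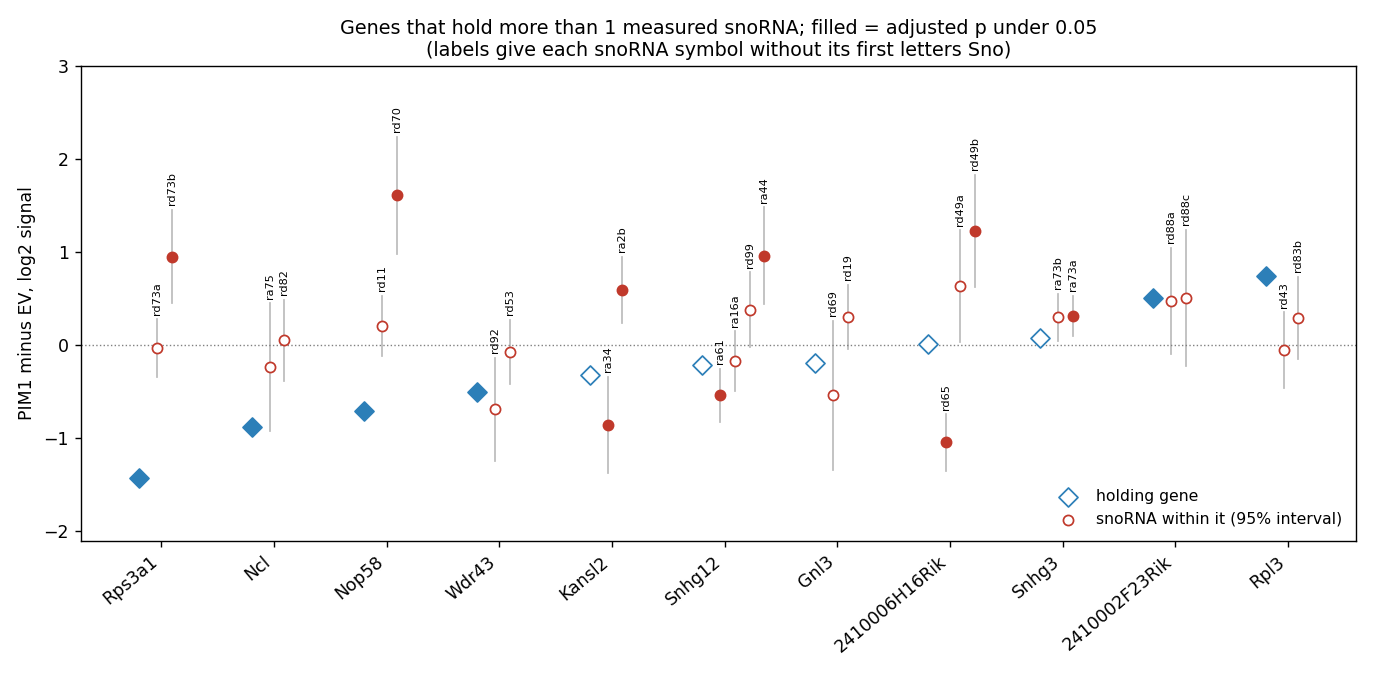
Difference PIM1 minus EV (y axis, log2 signal) for the 11 genes that hold more than 1 measured snoRNA (x axis); diamonds are the holding genes, circles the snoRNAs with 95% intervals, and filled symbols passed an adjusted p of 0.05. In 2410006H16Rik, Snhg12 and Kansl2 a filled circle lies on each side of 0 while the holder is not filled.

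Of the 34 protein-coding holders, 6 rose and 10 fell (47.1%, against 27% of all genes), with a median of -0.04. Among the brighter genes, 17 of 31 holders passed (54.8%), close to the 53.3% of all brighter genes. Besides Ncl and Rps3a1, the smallest p-values were those of Eif3a, a subunit gene of initiation factor 3 (9.50, 9.56 and 9.59 in PIM1 cells, against 10.51, 10.42 and 10.45 in EV cells, adjusted p = 0.000223), and Rpl32, a large-subunit ribosomal protein gene (10.54, 10.55 and 10.19 in PIM1 cells, against 9.35, 9.54 and 9.47 in EV cells, adjusted p = 0.000868). Eif3a fell by 0.91 and Rpl32 rose by 0.97, so holders with a role in translation moved in both directions.

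Of 19 measured genes for snoRNP proteins and their assembly factors, 5 rose and 4 fell (47.4%, against 27% of all genes), with a median of 0.13. Among the brighter genes the share was 52.6%, close to the 53.3% of all brighter genes. The split depended on scaling, with 6 up and 2 down after centring, 3 and 6 after quantile normalization and 3 and 5 after cyclic loess. The core proteins named here beyond those with the smallest p-values were chosen after their values were seen. Both directions occurred within the C/D core, where Nop56 rose by 0.49 (adjusted p = 0.00589) and Snu13 by 0.33 (adjusted p = 0.0383) while Nop58 fell by 0.71. The same held for the H/ACA core, where Nop10 rose by 0.44 (adjusted p = 0.0159) while Dkc1 fell by 0.39 (adjusted p = 0.0146) and Nhp2 by 0.42 (adjusted p = 0.0408). Gar1, also of the H/ACA core, did not pass (0.24, adjusted p = 0.234), and the fibrillarin gene of the C/D core is not among the 19. Naf1, an assembly factor of H/ACA particles, had 6.47, 6.34 and 6.57 in PIM1 cells, against 8.10, 7.58 and 7.27 in EV cells, and fell by 1.19 (adjusted p = 0.003). Without PIM1 replicate 1 the list held 4 calls and without PIM1 replicate 2 it held 5. Nop10 did not pass without PIM1 replicate 1 (adjusted p = 0.0599) and Dkc1 without PIM1 replicate 1 (adjusted p = 0.0607) or 2 (adjusted p = 0.0561). Nhp2 did not pass without any 1 of the PIM1 arrays or EV replicate 1 or 2 (adjusted p = 0.0764 to 0.119), nor Snu13 without PIM1 replicate 1 or 2 or any 1 of the EV arrays (adjusted p = 0.0735 to 0.143).

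Of 15 genes for snoRNA processing and the exosome, the complex that trims snoRNA 3' ends, 1 rose and 1 fell (13.3%, against 27% of all genes). Among the brighter genes, which include all 15, 5 passed (33.3%, against 53.3% of all brighter genes). The exonuclease gene Dis3 fell by 0.98 (8.66, 8.67 and 8.90 in PIM1 cells, against 9.66, 9.73 and 9.77 in EV cells, adjusted p = 0.000324), and Exosc8 rose by 0.49 (adjusted p = 0.0174), a call lost without PIM1 replicate 1 (adjusted p = 0.0592) or 3 (adjusted p = 0.0596). The deadenylase gene Parn (-0.32, adjusted p = 0.0506) and the exosome helicase gene Mtrex (-0.29, adjusted p = 0.0712) did not pass, though Parn did without EV replicate 1 (adjusted p = 0.0368) and Mtrex without PIM1 replicate 3 (adjusted p = 0.0489). Of 9 genes of nonsense-mediated decay, 2 passed (22.2%, against 27% of all genes), and 4 did among the brighter genes (44.4%, against 53.3%). Smg1, a kinase gene, fell by 0.49 (adjusted p = 0.00805) and Smg6, an endonuclease gene, rose by 0.45 (adjusted p = 0.0161). The Smg6 call was lost without PIM1 replicate 1 (adjusted p = 0.067) or 3 (adjusted p = 0.0511). Eif4a3 (-0.42, adjusted p = 0.0892) did not pass.

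Other short RNA genes on the array served as a comparison class. Of 487 such genes, 17 rose and 52 fell (14.2%, against 27% of all genes), with a median difference of -0.14, and 472 of them were microRNA genes. The median signal of the 487 was 2.39 in PIM1 cells and 2.52 in EV cells, under the array medians. Among the brighter genes 40 of 100 passed (40%), against 53.3% of all brighter genes. Over all 487 the split was 25 up and 28 down after centring, 27 and 38 after quantile normalization and 27 and 36 after cyclic loess. The smallest p-values were those of Mir101c (-3.09), Mir365-1 (-2.12), Mir5103 (1.95) and Mir1907 (1.76). Closer to the members in kind, the U3 snoRNA gene Rnu3a, whose RNA is a box C/D RNA acting in 18S processing, rose by 1.13 (6.79, 6.87 and 6.54 in PIM1 cells, against 5.37, 5.81 and 5.62 in EV cells, adjusted p = 0.000693). Terc, the telomerase RNA, which carries an H/ACA domain, rose by 0.71 (6.64, 6.51 and 6.49 in PIM1 cells, against 5.84, 5.76 and 5.90 in EV cells, adjusted p = 0.00114). The Cajal body RNA Scarna2 rose by 1.09 (8.65, 8.64 and 8.55 in PIM1 cells, against 7.22, 7.74 and 7.60 in EV cells, adjusted p = 0.000789). These 3 genes and Rny3 were picked after their values were seen, and in the 3 risers the lowest PIM1 array exceeded the highest EV array. Rny3, a Y RNA, fell by 1.22, with 7.97, 8.11 and 6.80 in PIM1 cells, against 9.21, 8.59 and 8.75 in EV cells (adjusted p = 0.027, or 0.0798 without EV replicate 1), and PIM1 replicate 3 was again the lowest.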

How the data were processed

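The authors deposited a normalized signal for each probe set of each Affymetrix whole-transcript mouse array, read here as log2 because of its range. The submitters' processing notes name Affymetrix Expression Console. Neither the log base nor the background correction or array normalization is given in the sources used here. Per the labels' protocols, total RNA was purified with Trizol and RNeasy kits, and recovery of RNA as short as snoRNAs was not measured. The deposited values were not scaled again. The number of arrays limits the precision.

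Of 41345 probe sets, 23521 had 1 symbol, 1814 several and 16010 none, and all 88 members matched RefSeq by Entrez identifier. Groups came from the sample titles and were compared with limma 3.58.1 (R 4.3.3; lmFit and eBayes, two-sided, Benjamini-Hochberg over 22180 genes, threshold 0.05), a procedure first tested on simulated data. A snoRNA's holder is a gene whose RefSeq span (GRCm38.p6) contains it, without regard to strand, which the table used does not give. Named members are the called hosts, the 5 hosts and 10 snoRNAs with the highest signal, the 10 largest rises and 10 largest falls without overlap, and the snoRNAs held by named hosts. For each related list the 4 genes with the smallest p are named, and others where the text says why. The members and lists were chosen with earlier results of these data known. Deviations from the group means had an r of 0.06, -0.03 and 0.01 between same-numbered arrays of the 2 groups. Between arrays of unlike number r was -0.06 to 0.05. These values cannot tell whether same-numbered arrays were prepared together, and the main fit used no pairing. The alternatives tried were a trended and robust prior, quantile, median and loess scaling, a brightness filter, other uses of probe sets, the replicate block and leaving out each array.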

Additional observations from a re-analysis of the deposited data

How the results depend on the processing

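Of 627 alternative values for the 45 named or called members over 14 settings, 555 kept their direction and their side of the threshold, 64 kept the direction but no longer passed, 5 newly passed and 3 changed sign. Snora33 became -0.15 when its probe sets were averaged, by construction from their opposite directions. Snord82, not called, ran from -0.072 to 0.29 over the fits that leave out 1 array, with -0.055 and -0.072 without PIM1 replicates 1 and 2. Of the 37 called members, 19 passed under every alternative that held them: 6 C/D, 9 H/ACA and 4 hosts. Leaving out 1 array gave 9 to 20 called C/D genes, 39 to 73 other short RNA genes, 4 to 7 snoRNP genes, 1 to 3 processing and exosome genes and 1 to 2 decay genes. The brighter genes alone gave 40 calls among other short RNA genes, where only 100 of 487 were kept, and testing all probe sets gave 31. Processing and exosome genes gave 6 calls with the trended prior, 5 with quantile normalization, 5 with cyclic loess and 5 among the brighter genes. Decay genes gave 4 with quantile normalization and 4 among the brighter genes. Where no construction is named, the cause was not tested. With the replicate block there were 15 C/D, 16 H/ACA and 4 host calls, against 15, 18 and 4. The signs of the 3 class medians were the same in all 14 settings. No detection call was used, so what the lowest signals measure is limited.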
